A study of Mus musculus with 4 samples.

Results

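Oxidative phosphorylation genes were examined by respiratory complex in the CA1 field of the mouse hippocampus. Members were the probe sets that carry a single gene symbol beginning with Nduf, Cox4 to Cox8, Atp5 or Uqcr, or equal to Sdha, Sdhb, Sdhc, Sdhd, Cycs or Cyc1. They numbered 101 probe sets for 73 genes, of 12488 probe sets and 8252 named genes on the array. A further 10 probe sets that list several symbols match the same names and were left out. By symbol the members fell into complex I (38 probe sets, 29 genes), complex II (4 and 4), complex III (9 and 8), cytochrome c (1 and 1), complex IV (23 and 15), complex V (22 and 14) and 2 assembly factors of complex I, Ndufaf1 and Ndufaf4 (4 probe sets).

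The 4 arrays hold total RNA of CA1 tissue from young male C57BL/6J mice that an experimenter handled and that had no other treatment. They are controls for shocked mice, which were not analysed here, and differ in when RNA was taken, at 1, 2, 4 or 6 hr after the last shock of those other animals. Each time has 1 array, and the labels do not say how many mice an array represents. The extraction time therefore cannot be told apart from any other difference between the samples or arrays, and no value has a replicate at its own time. Values are scaled intensities of a 1-colour oligonucleotide array, and the number of arrays limits the precision. Probes bind with different strength, so an intensity was compared with the same probe set on the other arrays and never with another gene. An SD with n = 4 is the spread over the 4 times and not over replicates.

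Oxidative phosphorylation makes most of a neuron's ATP. Complexes I and II pass electrons from NADH and succinate to ubiquinone, complex III passes them on to cytochrome c, and complex IV hands them to oxygen. Complexes I, III and IV pump protons across the inner mitochondrial membrane, and complex V, the ATP synthase, uses the return flow to make ATP. All the members are encoded in the nucleus and work together with subunits encoded in mitochondrial DNA, which were not analysed here.

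Markers of the labelled tissue were present. Of 7 probe sets for CA1 pyramidal neuron markers 6 passed the filter on low signal. Wfs1, one of these markers, read 1753, 2594, 2574 and 1668 at 1, 2, 4 and 6 hr, while Dcn read 2882, 3935, 2161 and 3290 and Lefty1 677, 651, 699 and 1066, so the markers did not peak on one array. Snap25, a synaptic protein of neurons, lay between 17370 and 20903. In tissue of mixed cells, fewer cells of a type and less RNA per cell cannot be told apart. The 2 hr array had the lowest median intensity, 173 against 198 to 204 on the others, and the highest 3' to 5' signal ratio of the Gapdh control, 7.56 against 4.84 to 6.25, while its Actb ratio of 3.2 lay within the 2.99 to 3.44 of the others. The 4 hr array stood apart in Ttr, the transthyretin of choroid plexus, which read 3217 there and 140 to 196 on the others. The other tested choroid plexus markers were not highest at 4 hr, Folr1 at 278, 120, 206 and 214 and Kl at 54.8, 370, 266 and 247.

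No member changed along the hours past the test. Of 78 member probe sets that passed the filter on low signal, for 66 genes and chiefly the brighter ones, 0 passed limma's straight-line test after Benjamini-Hochberg adjustment over 7453 probe sets, where 0% of all probe sets passed. The smallest adjusted p of a member was 0.947. At an unadjusted p under 0.05 there was 1 of 78, against 5.13% of all tested probe sets. On no array did a tested member stand apart by 1 log2 unit (2-fold) or more from the other 3, whereas 1.36% of all tested probe sets stood that far above and 6.37% that far below. Among the brightest 25% of probe sets by mean intensity, which held 53 of the 78, those shares were 0.215% and 0.161%, so a count of 0 is close to what bright probe sets showed in general.

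The members that passed the filter had a smaller median spread than tested probe sets in general, and 53 of the 78 were bright probe sets, which vary less. Their median SD over the 4 arrays was 0.181 log2 units, against 0.286 for all tested probe sets. Within the brightest 25% the medians were 0.162 for 53 members and 0.185 for all 1863, and 31 of the 53 lay under the median of all. In the next 25% by mean intensity 13 members had a median SD of 0.207 and all 1863 probe sets one of 0.243. In the lower 2 bands, which held 6 members each, the members' median SD was 0.409 against 0.33 for all in the brighter band and 0.339 against 0.535 in the dimmest, so the direction was not the same in every band. By complex the median SD was 0.154 for I, 0.197 for II, 0.234 for III, 0.228 for IV and 0.162 for V. Over the 4 arrays 19 of the 78 varied by less than 1.2-fold between their highest and lowest array, against 9.61% of all tested probe sets, and 15 of these 19 were among the 53 of the brightest 25%, where 20.9% of all probe sets did so. The members that varied by 2-fold or more numbered 3, Ndufa3, Cox6b1 and Atp5pb, against 25.3% of all tested probe sets. All 3 of these lay outside the brightest 25%, in which 3.11% of all probe sets varied that much.

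**Figure D1:**
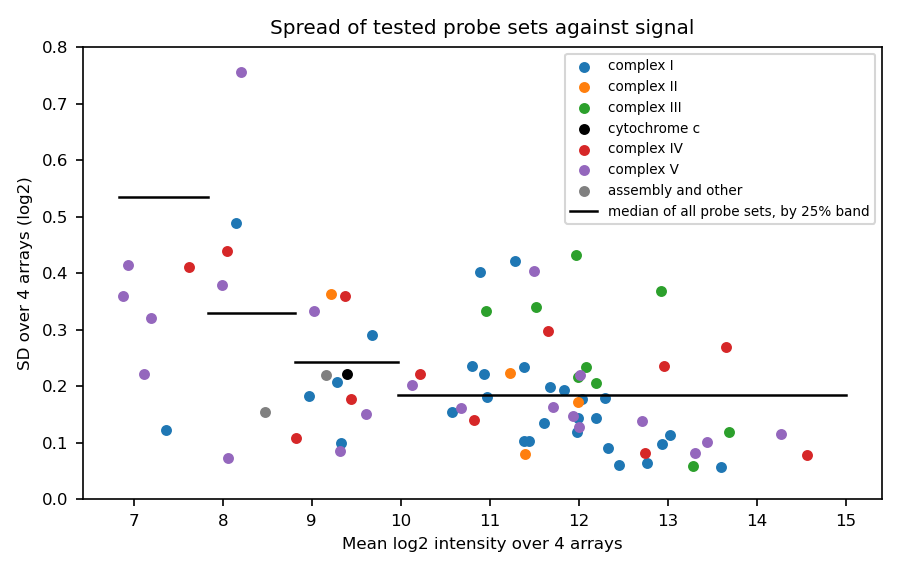
SD over the 4 arrays (log2 units) of each of the 78 tested member probe sets against its mean log2 intensity, coloured by complex. Black lines give the median SD of all tested probe sets in each 25% band of mean intensity (0.535, 0.33, 0.243 and 0.185 from dim to bright), and complex III points lie both under and over the line of the brightest band.

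As a group the members were most often at their highest on the 1 and 2 hr arrays and seldom on the 6 hr array. In time order, the highest value of a member fell on the 1, 2, 4 and 6 hr arrays in 24, 31, 17 and 6 of 78 cases, against 25.9%, 24.4%, 26.5% and 23.2% of all tested probe sets. In the brightest 25% these counts were 16, 26, 8 and 3 of 53, against 20.6%, 38.2%, 22.2% and 19%. The lowest value fell on them in 18, 13, 21 and 26 of 78, against 24.3%, 29%, 24.3% and 22.3%, and in the brightest 25% in 11, 8, 17 and 17 of 53, against 26.7%, 20.2%, 30.1% and 23%. The 6 probe sets highest at 6 hr were those of Ndufa9, Cox6a1, Cox6b1, Cox8c, Atp5j2 and the dim one of Atp5l. After quantile normalization 8 of 79 members were highest at 6 hr, and after a shift of each array to a common median 5 of 78; that shift put the highest value of 56 members, and of 3356 of all 7453 tested probe sets, on the 2 hr array. Each member's deviation is its log2 value minus its mean over the 4 arrays. The members had median deviations of 0.047, 0.082, -0.012 and -0.057 in time order, against 0.025, -0.008, 0.027 and 0.014 for all tested probe sets. For all probe sets of the brightest 25% they were -0.012, 0.064, -0.019 and -0.014, so the 2 hr value of the members was close to that of bright probe sets in general. The sign of the 6 hr median held under both other scalings (-0.044 and -0.086), while that of the 1 hr median flipped to -0.021 under the common median and that of the 4 hr median to 0.015 under quantile normalization. A slope below 0 was found for 54 of 78, against 49.1% of all tested probe sets, and for 40 of 53 in the brightest 25%, against 55.7%. Without the 6 hr array the count was 46 of 78 (59.0%), so part of the excess rests on that array. A member lay above its own mean in 49, 51, 36 and 25 of 78 cases in time order, against 53.3%, 49%, 53.8% and 52.3%, and in the brightest 25% in 33, 39, 21 and 13 of 53, against 47.2%, 62.8%, 45.9% and 46.9%.

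**Figure D2:**
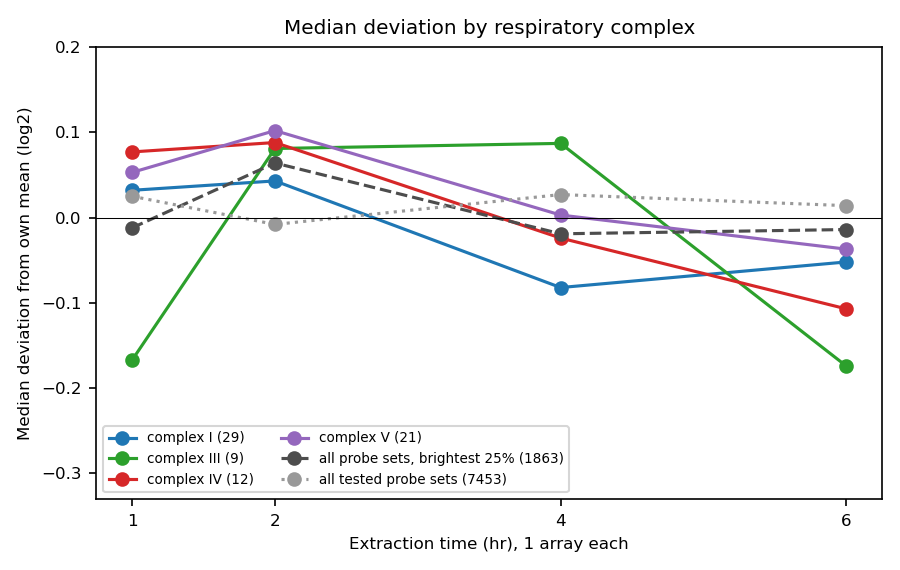
Median deviation from each probe set's own mean (log2 units) by extraction time, for complexes I, III, IV and V, for all tested probe sets and for those in the brightest 25%; the number of probe sets is in brackets. The medians of all 4 complexes lie below 0 at 6 hr, at -0.052, -0.174, -0.107 and -0.037, and that of complex III is also low at 1 hr. Under the common-median scaling the 1 hr medians of complexes I and V flip to -0.035 and -0.015 and the 4 hr median of complex V to -0.068, and under quantile normalization the 4 hr median of complex IV flips to 0.041.

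Other RNA in the tissue differed between the arrays as well. Median deviations of 5 tested probe sets for general neuron markers were 0.26, 0.14, -0.02 and -0.10 at 1, 2, 4 and 6 hr, while the summed intensity of all 6 on the array lay between 23505 and 27416, highest at 2 hr. Camk2a, a kinase of excitatory neurons, was under the floor on all arrays through one probe set and read 154, 137, 161 and 53.2 through the other. Oligodendrocyte markers, 11 of 11 probe sets tested and none at the floor on all arrays, had medians of 0.16, 0.10, -0.07 and -0.06 and summed to 28301, 26296, 25248 and 20628 in time order. Astrocyte markers, 7 of 8 tested, had medians of 0.12, 0.10, -0.09 and -0.06 and summed to between 20350 at 4 hr and 22146 at 2 hr. They did not move together, with 4 of 7 slopes below 0. Slc1a2 rose, at 218, 330, 451 and 580 (slope unadjusted p = 0.00999, limma adjusted p = 0.883). Gja1 was lower at 4 and 6 hr through both its probe sets. The dim one read 503, 445, 249 and 268 and the bright one 6146, 6432, 4848 and 5290. Endothelial markers, 4 of 6 tested, had medians of 0.32, 0.11, 0.15 and -0.29 and summed to between 1168 at 6 hr and 1821 at 2 hr. CA1 pyramidal neuron markers, 6 of 7 tested, had medians of -0.096, 0.018, 0.096 and 0.12, but 3 of the 6 had a slope below 0. Their sums of 7209, 9031, 7431 and 7702 were highest at 2 hr. Microglial markers, 7 of 8 tested, had medians of 0.071, -0.23, 0.12 and 0.038. The part of these cell types in the profiles of the members was not tested.

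Complex I is the largest enzyme of the chain and takes electrons from NADH. Its tested members, 29 of 38 probe sets for 26 of 29 genes, were lower on the 4 and 6 hr arrays than on the earlier ones more often than not: 22 of 29 had a slope below 0, and 12 were lowest at 4 hr, against 24.3% of all tested probe sets (in the brightest 25%, 9 of 23 against 30.1%). Under the common median 25 of 29 had a slope below 0 (86.2% against 75.9% as deposited), while the share over all tested probe sets was 55.7% against 49.1%, and over the brightest 25% it was 65.1% against 55.7%. Median deviations were 0.032, 0.043, -0.082 and -0.052 in time order, and the 1 hr value flipped to -0.035 under the common median. The median difference of 4 and 6 hr from 1 and 2 hr was -0.14 log2 units, against 0.014 for all tested probe sets. In the brightest 25% it was -0.141 for the 23 of complex I and -0.037 for all probe sets. The profile averaged over the 29 had an SD over the arrays of 0.069 log2 units, against a root mean square SD of 0.208 for its single probe sets. If all had moved as one, both would be equal.

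Ndufab1, the mitochondrial acyl carrier protein that also sits in complex I, read 2917, 3127, 1635 and 2581 at 1, 2, 4 and 6 hr. Ndufb3, an accessory subunit of the membrane arm, read 1786, 2763, 1414 and 1867. Both were highest at 2 hr and lowest at 4 hr, 1.91-fold and 1.95-fold apart. At the other end were Ndufb5, an accessory subunit of the same arm, at 13150, 12200, 12055 and 12229, and Ndufa5, an accessory subunit of the peripheral arm, at 6731, 7363, 6744 and 7129. Each varied by about the same small factor, 1.09-fold. Ndufa3 gave unequal accounts through its 2 probe sets, one at 5705, 5535, 5883 and 5339 and the other at 174, 327, 376 and 306. Only the dim one was low at 1 hr. Its fitted slope of 0.13 ± 0.10 (SE, log2 per hr; adjusted p = 1.00, limma) had the smallest unadjusted p of any member with a slope above 0.

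The parts of complex I had medians of the same sign at 2, 4 and 6 hr and differed in sign at 1 hr, a difference that was not tested. The N module binds NADH, and 7 of its 8 probe sets were tested, for 6 of 8 listed genes; their medians were -0.019, 0.18, -0.10 and -0.052, with 4 of 7 highest at 2 hr. Ndufs1, its largest iron-sulphur subunit, read 1663, 2374, 2056 and 1838, and Ndufv1, the NADH-binding flavoprotein, read 4071, 3720, 4511 and 3894. These 2 subunits thus peaked on different arrays. The Q module, which reduces ubiquinone, was represented by Ndufs3 and Ndufa5, both highest at 2 hr, with medians of -0.047, 0.14, -0.078 and -0.012. The 20 probe sets outside these lists had a median deviation of 0.096 on the 1 hr array. On it 16 of them were above their own mean, against 53.3% of all tested probe sets and 47.2% of the brightest band. As background for the N and Q modules, 24.4% of all tested probe sets and 38.2% of that band were highest at 2 hr. The counts were not tested against these shares.

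Ndufa8, a cysteine-rich accessory subunit, read 2720, 2879, 2629 and 2431. Its promoter window is shown as the complex I example of a match to the motif of NRF1, a transcription factor known to activate nuclear genes of the respiratory chain. Motifs were searched on both strands of the 300 bases that run from 250 before to 50 after a gene's start, from RefSeq on GRCm38.p6, of which 59 of the 73 member genes had 64 windows. The letters were GCGC, then any base, then TGCGC for NRF1, CGGAAG for the core of ETS factors such as GABP, AAGATGGC for YY1, AAGGTCA for estrogen-related receptors and GGGCGG for the GC box. In this and the next windows, given 5′ to 3′ on the strand of the gene, capitals mark these 5 motifs, no 2 of which overlapped. The window lies at chr2:36049289-36049588 on the minus strand.
Ndufa8: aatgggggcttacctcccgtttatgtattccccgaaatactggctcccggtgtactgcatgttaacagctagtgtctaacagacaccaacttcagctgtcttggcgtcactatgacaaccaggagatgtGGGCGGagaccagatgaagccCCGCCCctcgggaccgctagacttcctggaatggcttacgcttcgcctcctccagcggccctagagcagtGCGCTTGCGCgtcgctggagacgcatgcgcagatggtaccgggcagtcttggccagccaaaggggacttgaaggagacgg

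NRF1 matches were found in 13 of 64 member windows (20.3%), for 12 genes, against 6.38% of all 21262 windows of protein-coding genes. They lay in Ndufa5, Ndufa6, Ndufa8 and Ndufaf4 for complex I and its assembly, in Sdha and Sdhd for complex II, in Uqcrc1, in Cox6a1, and in Atp5c1, Atp5g2, Atp5k and Atp5o for complex V. CGGAAG was in 45.3% of member windows and 21.1% of all, AAGATGGC in 12.5% and 3.05%, AAGGTCA in 7.81% and 4.08%, and GGGCGG in 46.9% and 46.2%. TATAAA, the core promoter element, was in 10.9% and 12.6%. A match describes the letters and does not show binding.

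Complex II, succinate dehydrogenase, is shared with the citric acid cycle and had all 4 subunits tested. Sdha, the flavoprotein that oxidises succinate, read 853, 593, 506 and 496 at 1, 2, 4 and 6 hr. These values were in falling order of time, with a fitted slope of -0.14 ± 0.07 (SE, log2 per hr; adjusted p = 0.983, limma). Sdhb, the iron-sulphur subunit, read 4624, 3662, 4401 and 3703, and was higher at 1 and 4 hr. Sdhc and Sdhd, the membrane anchors, read 2563, 2868, 2590 and 2784, and 2330, 2747, 1961 and 2671. The anchors were both higher at 2 and 6 hr, the arrays on which Sdhb was lower. Of the 4 slopes 2 were below 0, against 49.1% of all tested probe sets. After the common-median shift all 4 were, as were 55.7% of all tested probe sets. The promoter window of Sdha, at chr13:74350191-74350490 on the minus strand, is shown because it held 3 matches to the NRF1 motif, more than the other windows printed here.
Sdha: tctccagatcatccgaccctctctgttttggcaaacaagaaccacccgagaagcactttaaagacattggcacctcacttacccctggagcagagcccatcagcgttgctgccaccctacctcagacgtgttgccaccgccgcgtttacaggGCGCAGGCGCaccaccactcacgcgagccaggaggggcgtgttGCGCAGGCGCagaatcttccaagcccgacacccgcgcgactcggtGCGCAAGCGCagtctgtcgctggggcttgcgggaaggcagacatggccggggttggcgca

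Complex III, the cytochrome bc1 complex, was low at 1 and 6 hr and high at 2 and 4 hr by its median. Median deviations of its 9 probe sets, all tested, were -0.17, 0.081, 0.087 and -0.17, with the same signs under both other scalings. At 1 and 2 hr 4 and 5 of the 9 lay above their own mean, against 47.2% and 62.8% of the brightest 25%, so the counts on those arrays were near the background. On the 4 hr array 5 of the 9 were highest, and 1 of 9 was above its own mean at 6 hr. All 9 were in the brightest 25%, of whose probe sets 22.2% were highest at 4 hr and 46.9% above their own mean at 6 hr. Without the 4 hr array, on which Ttr stood apart, the medians were -0.011 at 1 hr and -0.035 at 6 hr. A slope below 0 was found for 7 of 9 (6 of 9 after quantile normalization), against 55.7% of the brightest 25%. That count was only 4 of 9 on a scale of log2 hours and 2 of 9 without the 6 hr array. Whether this profile differs from that of the other complexes was not tested.

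Its members did not all share that profile. Uqcr10, a small accessory subunit, read 4129, 5300, 5293 and 4149, and Uqcr11, another, read 3603, 4451, 4780 and 3546. In both the 2 and 4 hr arrays lay above the 1 and 6 hr arrays. Uqcrc1, a core subunit, read 1775, 1971, 2760 and 1634 and was highest at 4 hr. Its partner Uqcrc2 read 10678, 6477, 6186 and 8535, with its higher values at 1 and 6 hr, where Uqcrc1 was lower. Uqcrb, which helps to form the ubiquinone site, read 2224, 3959, 2914 and 2906, and Uqcrh, the hinge protein that docks cytochrome c, read 4678, 5222, 3820 and 3731. Both were highest at 2 hr. Uqcrq, a small accessory subunit, varied least of complex III, between 9599 and 10522. Cyc1, the haem-bearing cytochrome c1, read 11738, 13936, 13995 and 13179 through one probe set and 4806, 2801, 5425 and 3540 through another. The 2 Cyc1 probe sets were both highest at 4 hr and disagreed at 2 hr. The promoter window of Uqcrc1, at chr9:108936398-108936697 on the plus strand, held 2 NRF1 matches and is shown as that of the only complex III gene, of 4 with a window, that had a match.
Uqcrc1: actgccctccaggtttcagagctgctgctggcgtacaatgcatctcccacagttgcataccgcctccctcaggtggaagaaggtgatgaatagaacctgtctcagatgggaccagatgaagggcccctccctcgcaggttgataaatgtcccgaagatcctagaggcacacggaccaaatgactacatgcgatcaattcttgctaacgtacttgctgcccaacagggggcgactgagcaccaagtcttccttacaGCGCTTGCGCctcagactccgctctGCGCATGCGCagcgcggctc

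Cycs, the mobile cytochrome c that links complexes III and IV, read 736, 735, 718 and 537. The 6 hr array was the low one, and the others lay between 718 and 736. Its fitted slope was -0.087 ± 0.064 (SE, log2 per hr; adjusted p = 1.00, limma).

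**Figure D3:**
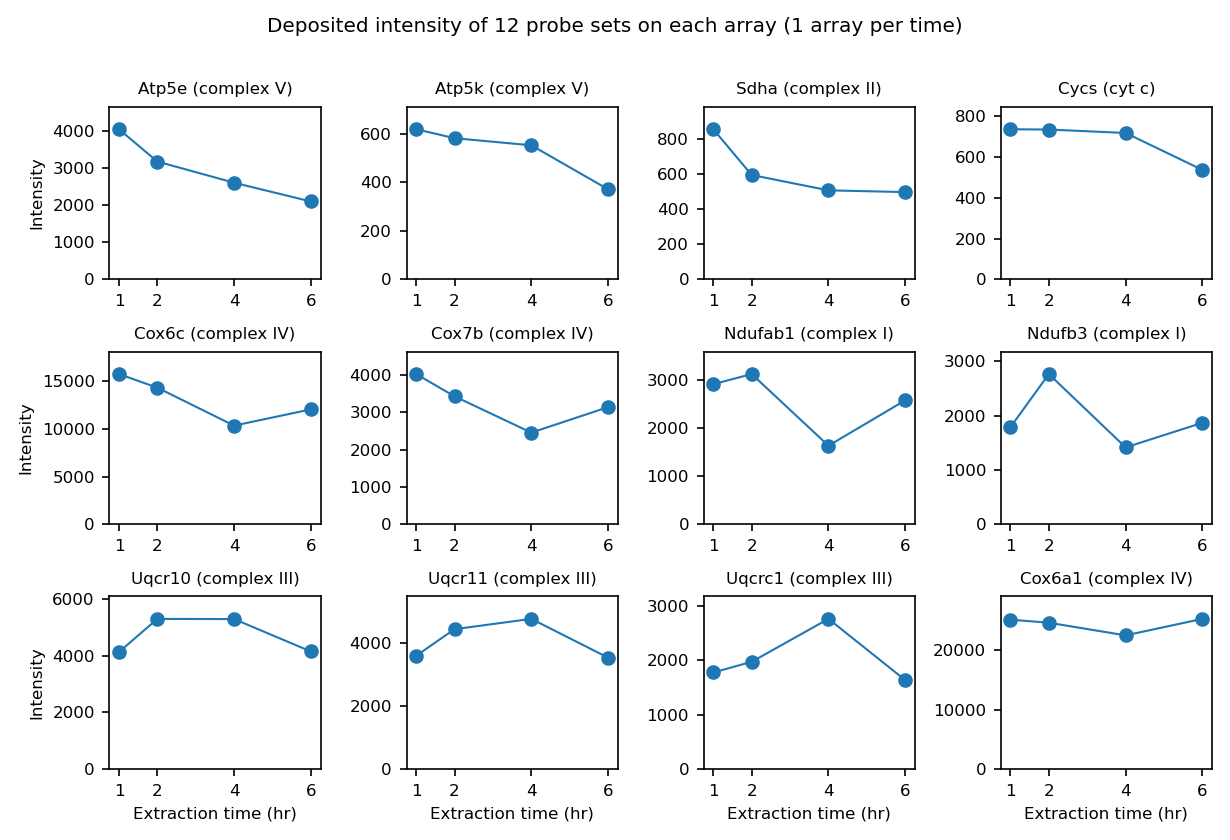
Deposited intensity of 12 member probe sets (vertical axes start at 0) against extraction time in hr, 1 array per point. Atp5e, Atp5k, Sdha and Cycs are in falling order of time, Cox6c, Cox7b, Ndufab1 and Ndufb3 are lowest at 4 hr, Uqcr10 and Uqcr11 are higher at 2 and 4 hr, Uqcrc1 is highest at 4 hr, and Cox6a1 varies by 1.12-fold.

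Complex IV, cytochrome c oxidase, had 12 of 23 probe sets tested, for 11 of 15 genes. A slope below 0 was found for 8 of 12, against 49.1% of all tested probe sets, and in the brightest band for 6 of 7, against 55.7%. Median deviations were 0.077, 0.088, -0.024 and -0.11 in time order, and the 4 hr value flipped to 0.041 under quantile normalization. At 1 hr 10 of 12 were above their own mean, against 53.3% of all tested probe sets, and at 6 hr 4 of 12, against 52.3%. In the brightest band these counts were 7 of 7 at 1 hr, against 47.2%, and 2 of 7 at 6 hr, against 46.9%. Cox6c, a small nuclear subunit, read 15729, 14302, 10330 and 12031, and Cox7b, needed to assemble the enzyme, read 4020, 3424, 2452 and 3135. Both were highest at 1 hr and lowest at 4 hr. Cox6c has 2 more probe sets, one at the floor on all arrays and one on 2 of them. Cox5b, a zinc-binding subunit, ran between 6334 and 7225 and was lowest at 6 hr. Cox4i1, the regulatory subunit of most tissues, read 769, 770, 639 and 609 through one probe set and 149, 224, 274 and 162 through another, with slopes of opposite sign.

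Several complex IV subunits exist as tissue isoforms, and the array holds both forms of some pairs. Cox6a1, the form of most tissues, read 25077, 24573, 22448 and 25217, and Cox6a2, the form of heart and skeletal muscle, read 791, 665, 786 and 465. The Cox6a2 values were lowest at 6 hr, with a fitted slope of -0.12 ± 0.08 (SE, log2 per hr; adjusted p = 1.00, limma). Cox7a2 read 8473, 9787, 7198 and 6842, whereas Cox7a1, its muscle form, was under the floor of 54.6 on all 4 arrays. Cox7a2l ran between 1567 and 1940. Cox8b, the muscle form of subunit 8, read 424, 429, 500 and 460 through one probe set, while another lay between 28.0 and 80.1. Cox8a, the common form, lay between 7.9 and 78.8 and Cox8c, a testis form, between 956 and 1342 through one probe set and at 84.5 or less through the other. Of the 12 probe sets for 8 muscle markers beside these, 3 passed the filter and 2 were at the floor on all arrays, and together they summed to 1358, 782, 986 and 933 in time order. Acta1 read 271, 269, 136 and 162, and Ckm read 260, 156, 28.9 and 116 through its tested probe set. All 3 that were tested had a slope below 0, against 49.1% of all tested probe sets. Dim, untested probe sets had no common order. A second one of Ckm read 26.2, 14.4, 32.7 and 75.8, and one of Actn3 read 71.8, 40.2, 85.8 and 150, both highest at 6 hr. The other one of Actn3 and both of Mb were highest at 4 hr. Tnnt3 read 146, 13.3, 5.6 and 71.4 and was highest at 1 hr, as were Myh1, Myh6 and the untested one of Myh4. The part of muscle RNA in the muscle isoforms was not tested.

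Cox6b1, which caps the enzyme toward cytochrome c, read 294, 178, 258 and 367, and was 2.07-fold apart between 6 and 2 hr. Its fitted slope was 0.11 ± 0.09 (SE, log2 per hr; adjusted p = 1.00, limma). Cox6b2, its testis form, did not pass the filter through any of 3 probe sets. Of the complex IV genes, Cox5a, Cox6b2, Cox7a1 and Cox8a were not tested, their signal being low. Cox6a1 had 2 NRF1 matches, 1 ETS core and 2 GC boxes in its promoter window at chr5:115348909-115349208 on the minus strand, shown as that of the only complex IV gene, of 11 with a window, that had an NRF1 match.
Cox6a1: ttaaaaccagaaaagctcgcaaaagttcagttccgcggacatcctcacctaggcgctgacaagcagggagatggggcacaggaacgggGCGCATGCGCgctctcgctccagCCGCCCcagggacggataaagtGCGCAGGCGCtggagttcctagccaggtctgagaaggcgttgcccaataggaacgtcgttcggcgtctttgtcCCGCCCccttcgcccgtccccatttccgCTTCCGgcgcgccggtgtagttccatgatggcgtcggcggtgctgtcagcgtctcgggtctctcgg

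Complex V makes ATP in a rotary F1 head that a membrane part drives. Of its 22 probe sets 21 were tested, for all 14 genes. Slopes below 0 numbered 14 of 21, against 49.1% of all tested probe sets, and 7 of 11 in the brightest 25%, against 55.7%. Without the 6 hr array they numbered only 9 of 19 (47.4%). Median deviations were 0.053, 0.10, 0.003 and -0.037 in time order; the 1 and 4 hr values flipped to -0.015 and -0.068 under the common median, and without the 6 hr array the 2 hr median was 0.009. On the 2 hr array 15 of 21 were above their own mean, against 49% of all tested probe sets, and 11 of the 11 in the brightest 25%, against 62.8% there. At 6 hr 8 of 21 were above it, against 52.3%.

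In the head, Atp5a1, a catalytic-ring subunit, read 10103, 11907, 11445 and 11008 and varied by 1.18-fold. Atp5c1, the rotating shaft, read 6951, 7497, 5976 and 6553 through one probe set and 4063, 4443, 3552 and 3668 through the other. Both probe sets put the arrays in the same order, highest at 2 hr and lowest at 4 hr. Atp5e, a small subunit at the foot of the shaft, read 4056, 3182, 2612 and 2105 at 1, 2, 4 and 6 hr. It was in falling order of time, 1.93-fold apart, with a fitted slope of -0.18 ± 0.06 (SE, log2 per hr; adjusted p = 0.947, limma). Atp5e was the only member with an unadjusted p under 0.05, and it has a single probe set, whose name marks an incomplete choice of probes. Atp5d, its neighbour in the head, had 4 tested probe sets with slopes between -0.055 and 0.090, 2 of them below 0. Its probe sets thus gave no shared direction.

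In the stalk and membrane part, Atp5k read 618, 581, 552 and 371, with a fitted slope of -0.14 ± 0.07 (SE, log2 per hr; adjusted p = 0.973, limma). Atp5l read 10660, 10527, 10212 and 9411 through its bright probe set, also in falling order, and 140, 87.2, 105 and 148 through its dim one, which was highest at 6 hr. Both proteins belong to the part that dimerises the enzyme. Atp5pb, of the peripheral stalk, read 437, 259, 451 and 149. It had the widest spread of the tested members, an SD of 0.75 log2 units, and was high at 1 and 4 hr and low at 2 and 6 hr. Atp5j2 read 113, 132, 86.4 and 172. The ring that turns in the membrane was seen through Atp5g1, at 284, 264, 268 and 251 and at 135, 164, 148 and 114, and through Atp5g2, at 687, 597, 622 and 643 and at 191, 116, 131 and 161. All 4 of these ring probe sets had slopes below 0 and no more than 0.062 log2 units per hr in size, each smaller than its SE. Of all 78 tested members 5 were in strictly falling order of time (Atp5e, Atp5k, Atp5l, Sdha and Cycs) and 0 in strictly rising order, against 3.37% and 4.01% of all tested probe sets.

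The promoter windows of Atp5e and Atp5k are shown as those of the 2 members with the smallest unadjusted p. Both held 2 ETS cores and 1 AAGGTCA, and Atp5k 1 NRF1 match. They lie at chr2:174464052-174464351 and chr5:108434350-108434649, both on the minus strand.
Atp5e: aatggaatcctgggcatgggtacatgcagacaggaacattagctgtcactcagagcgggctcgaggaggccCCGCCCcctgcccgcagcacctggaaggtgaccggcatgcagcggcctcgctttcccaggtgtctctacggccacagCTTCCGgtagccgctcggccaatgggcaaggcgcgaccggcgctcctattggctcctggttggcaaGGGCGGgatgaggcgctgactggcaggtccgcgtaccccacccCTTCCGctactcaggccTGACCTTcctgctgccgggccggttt
Atp5k: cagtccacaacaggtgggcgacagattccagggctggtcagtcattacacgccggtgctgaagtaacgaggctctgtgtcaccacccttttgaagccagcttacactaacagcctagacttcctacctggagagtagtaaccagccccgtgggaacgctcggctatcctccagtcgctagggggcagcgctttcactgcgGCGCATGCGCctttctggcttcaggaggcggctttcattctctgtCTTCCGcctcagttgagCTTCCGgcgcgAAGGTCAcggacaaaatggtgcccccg

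**Figure D4:**
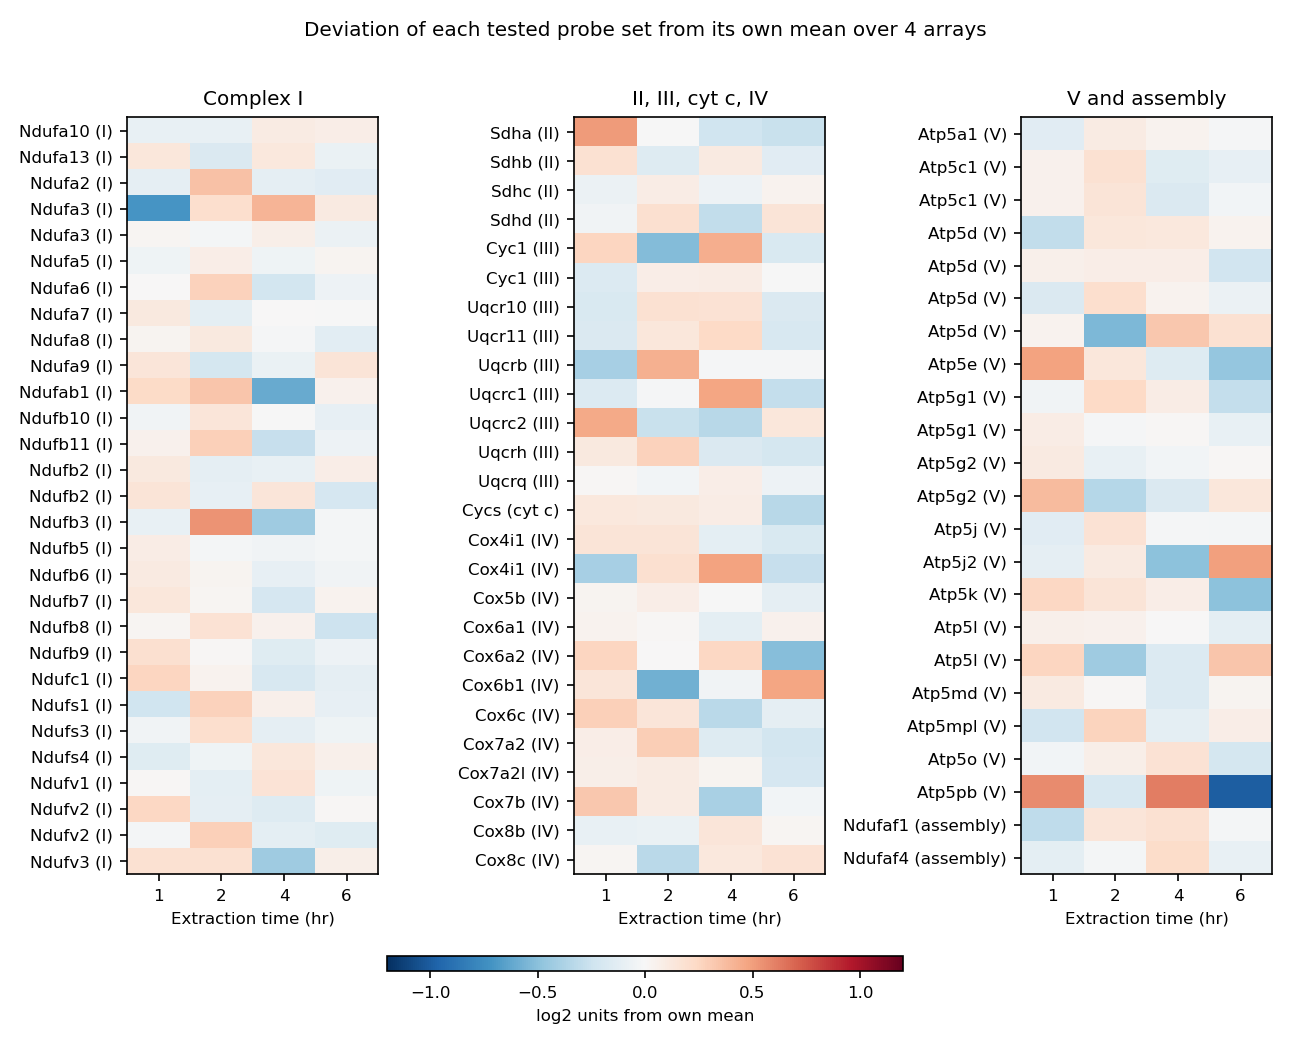
Deviation of each of the 78 tested member probe sets from its own mean over the 4 arrays (colour, log2 units), by extraction time and complex; a gene with several tested probe sets has a row for each. The 4 hr column is the low one for Ndufab1, Ndufb3, Ndufv3, Cox6c and Cox7b, the 6 hr column is low for Atp5pb, Atp5k, Atp5e and Cox6a2, and several complex III rows are high at 2 and 4 hr.

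Repeat probe sets limited how firmly single genes could be read. Of 21 genes with more than 1 probe set, 10 had more than 1 that was tested, and in 6 of these (Atp5d, Atp5l, Cox4i1, Cyc1, Ndufa3 and Ndufb2) the slopes differed in sign. For Ndufb2, a membrane-arm subunit, the slopes were -0.045 and 0.001 log2 units per hr. Among the 23 probe sets that were not tested, 9 were at or under the floor on all 4 arrays, for Cox6b2, Cox6c, Cox7a1, Ndufaf4, Ndufb10, Ndufb2, Ndufb6 and Ndufb7, of which Cox6c, Ndufaf4, Ndufb10, Ndufb2, Ndufb6 and Ndufb7 had a brighter probe set that was tested. A further 13 were at or under it on some arrays, for Atp5d, Cox5a, Cox6b2, Cox6c, Cox8a, Cox8b, Cox8c, Ndufa1, Ndufa12, Ndufaf1 and Ndufc2. The 7 genes with no tested probe set were Cox5a, Cox6b2, Cox7a1, Cox8a, Ndufa1, Ndufa12 and Ndufc2. No tested member touched the floor. The names of 25 tested probe sets carry the maker's mark for probes shared with other sequences or incomplete, among them those of Ndufb5, Cox6a1, Cox6c, Uqcrb and Uqcrc2, so related sequences may add to their signal.

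Factors that build or feed the chain were also measured. The assembly factors of complex I, Ndufaf1 and Ndufaf4, read 464, 631, 647 and 564, and 329, 350, 416 and 335, both lowest at 1 hr and highest at 4 hr. Of 20 further assembly factors listed, 9 were on the array and tested, 5 with a slope below 0 (49.1% of all tested probe sets) and 0 past limma's test (0 at an unadjusted p under 0.05). Cox18, which inserts a complex IV subunit into the membrane, read 1443, 1143, 1496 and 1767, and Sdhaf1, for complex II, read 1254, 1202, 1290 and 1038. Of 10 carriers and channels 7 genes were tested through 10 probe sets, 7 of them with a slope below 0, against 49.1% of all tested probe sets. None passed limma's test, and 2 had an unadjusted p under 0.05, against 5.13% of all. Slc25a3, the phosphate carrier that supplies complex V, read 267, 167, 161 and 83.5 (slope unadjusted p = 0.0113, limma adjusted p = 0.883). Slc25a5, an ATP carrier, read 118, 143, 228 and 257 through a dim probe set, 59.7, 169, 330 and 228 through a second, which stood at least 2-fold below the others at 1 hr, and 1008, 833, 706 and 853 through the brightest, where the order was not shared. Slc25a14, a mitochondrial carrier, stood at least 2-fold above the others at 2 hr, with 368, 871, 302 and 385. Of all tested probe sets 1.36% stood that far above on one array or another, and 6.37% that far below. In the dimmest band of mean intensity, where the second Slc25a5 probe set lay, 355 of 1864 stood that far below.

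Regulators of mitochondrial genes were lowest at 4 hr in 5 of 9 tested probe sets, against 24.3% of all tested probe sets, and 0 passed limma's test (0 at an unadjusted p under 0.05). Ppargc1a, the coactivator PGC-1alpha, read 253, 186, 76.0 and 326, and Tfb2m, a mitochondrial transcription factor, read 232, 351, 60.5 and 262. Both stood at least 2-fold below the other arrays at 4 hr, as did 6.37% of all tested probe sets on one array or another. In the dimmest band of mean intensity, where both lay, 355 of 1864 probe sets did so. Gabpb1, the subunit of the ETS factor GABP, read 273, 223, 135 and 186 through one probe set and 108, 74.5, 227 and 188 through another, so its 2 probe sets opposed each other. Yy1 read 1113, 1295, 890 and 1133. Median deviations of the 9 were 0.18, 0.18, -0.28 and 0.13 in time order. Nrf1 itself was not analysed here.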

How the data were processed

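Intensities of 12488 probe sets on 4 arrays were used, 1 array at each of 1, 2, 4 and 6 hr. The deposited intensity values are linear, with summarising software not given in the sources used here. After trimming 2% at each end every array averaged 500.3, which shows from the values that the authors' scaling made overall levels equal and hid any change common to most genes. Without detection calls, a dim value may be background.

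Symbols came from the platform's annotation table (10855 probe sets with 1, 396 with several, 1237 with none); all 101 member probe sets matched a RefSeq gene of GRCm38.p6 through the Entrez identifier, with the same symbol. Tests left out the 66 control probe sets. Values were raised to a floor of 54.6, their 25th percentile, and put on a log2 scale, and the 7453 probe sets with a mean above the 40th percentile were tested. For each, limma 3.58.1 under R 4.3.3 (lmFit, eBayes) fitted a straight line over hours with 2 residual degrees of freedom, with two-sided p-values adjusted by Benjamini-Hochberg at 0.05. The labels do not state separate animals, and these p-values therefore cover only the scatter of the arrays about the line, possibly technical. The fit was checked on simulated data.

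The members and lists were chosen with earlier results of these data known. Named genes are, by complex, the 3 of largest and 2 of smallest SD, the 5 of smallest unadjusted p in each direction, isoforms, genes whose probe sets differ in the sign of the slope, and members at the floor. In the other lists they are members standing apart on an array and the 2 of smallest unadjusted p. Remaining genes were named after their values were seen. Alternatives covered scaling, floor, filter, each array left out, the time scale, the contrast, the variance model, 1 probe set per gene, and, chosen after seeing the data, probe sets without the maker's mark for shared or incomplete probes.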

Additional observations from a re-analysis of the deposited data

How the results depend on the processing

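Over 33 results and their alternatives, 27 of 389 values moved by more than a tolerance. The tolerance was the SD over the arrays of the mean profile for a median deviation, the 95% exact binomial interval for a share of slopes, and 1.5 times for counts and median SDs. It is wide for small groups, and some values within it changed sign: complex I at 1 hr was -0.035 under the common median, all members at 4 hr were 0.015 after quantile normalization and 0.019 without the 2 hr array, complex IV at 4 hr was 0.006 without the 1 hr array, 0.019 without the 2 hr array and 0.033 without marked probe sets, and complex V at 4 hr was -0.021 without the 6 hr array and -0.004 with 1 probe set per gene. Signs of medians this close to 0 are therefore not firm. The count of members past the trend test was 0 under every alternative run, with between 0 and 4 members at an unadjusted p under 0.05. Shifting each array to a common median put the median deviation of all tested probe sets at 2 hr at 0.16, against -0.008 as deposited, and with it those of the members: all members to -0.021 at 1 hr, 0.249 at 2 hr and -0.083 at 4 hr, complex I to 0.21 at 2 hr and -0.153 at 4 hr, complex III to 0.248 at 2 hr, complex IV to 0.009, 0.255 and -0.095 at 1, 2 and 4 hr, and complex V to -0.015, 0.269 and -0.068. The median SD of complex V became 0.256 there. Relative to bright probe sets in general, the members' medians were the same under that shift. This holds by construction, because the shift multiplies all values of an array by a common factor. Quantile normalization moved complex IV to 0.012 at 2 hr and 0.041 at 4 hr. With no filter the 2 hr median was 0.014 for all members and 0 for complex IV, and 1 member, Ndufa1 at 6 hr, stood apart on an array. With each array left out, the count standing apart ran from 0 to 2 (Cox6b2 and Atp5pb without 2 hr, Ndufc2 and Cox6b2 without 6 hr, none of them apart on all 4 arrays), the complex III medians from -0.167 to -0.011 at 1 hr and from -0.15 to -0.035 at 6 hr, its share of slopes below 0 from 22.2% to 77.8%, and the complex V median at 2 hr from 0.009 to 0.101. That share was 33.3% for 4 and 6 hr against 1 and 2 hr, and 44.4% on a scale of log2 hours. Without marked probe sets the medians were 0.129 for complex I at 2 hr and -0.205 for complex IV at 6 hr. The cause of these moves was not tested. No paired analysis was possible because each time has 1 array and the groups share only 1 replicate number. With 2 residual degrees of freedom and no detection calls, small changes and dim members could not be resolved.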
